A study of Mus musculus with 6 samples.

Results

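Chemokine ligand genes were examined in V6.5 mouse embryonic stem cells carrying a doxycycline-inducible short hairpin RNA. The members were all genes read by at least 1 unshared probe set whose platform symbol began with Ccl, Cxcl, Xcl or Cx3cl and continued with a number and at most a letter. They came to 34 of the 19938 genes measured, and for Ccl19 and Ccl25, which had several probe sets, the probe set with the highest mean was used. The 6 other symbols of this form, Ccl21a to Ccl21d and Ccl27a and Ccl27b, were read only by 7 probe sets that several genes share, so they have no value here. Each of 3 lines was measured on 1 GeneChip Mouse Gene 1.0 ST array with doxycycline (dox) at 1 µg/ml and 1 array without it. The hairpin 1 and hairpin 2 lines carried the hairpins labelled shRNA1 and shRNA2, called Pcgf6 hairpins here from the study's stated Pcgf6 knockdown, and the scrambled line carried a control hairpin. Pcgf6 encodes a RING finger protein of a variant polycomb repressive complex. All 6 samples were total RNA from stem cells grown in serum and leukemia inhibitory factor on mitomycin-inactivated DR4 mouse embryo fibroblasts as feeder cells. The labels give neither the length of dox treatment nor whether a line was 1 clone or whether the arrays came from separate cultures, so a p-value here reflects only how far these arrays scatter, and that scatter may be technical. Whether feeder cells were removed before RNA was taken is not given either.

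Chemokines are small secreted proteins that direct the movement of leukocytes and other cells through receptors coupled to G proteins, and their CC, CXC, XC and CX3C classes are named for the spacing of conserved cysteines near the N-terminus. Inflammatory members are induced in fibroblasts, endothelium and macrophages by cytokines and microbial products, largely through NF-kB, whereas homeostatic members are made steadily and position cells in tissues. Embryo fibroblasts are a known source of several CC and CXC ligands.

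Pcgf6 measured 9.39 with dox and 11.56 without under hairpin 1 on the log2 scale, 9.27 and 11.70 under hairpin 2, and 11.82 and 11.80 in the scrambled line. It was 4.94-fold lower (SE 0.10 on the log2 scale, limma adjusted p = 0.000846) with dox in the Pcgf6 hairpin lines. The medians of the arrays over all genes lay between 7.52 and 7.58. The mean of 15 stem cell markers lay between 11.54 and 11.78 and was highest on the scrambled array without dox. The file holds no detection call, so a low and level value cannot be told from background, and values of different genes cannot be ranked as amounts.

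The widest differences among the chemokine ligands lay between lines. Of the 34 members, 7 spanned at least 1 log2 unit between the lowest and highest array, namely Ccl11, Ccl2, Ccl7, Cxcl14, Ccl8, Ccl3 and Cxcl2; over all genes 2.37% did. Both hairpin 2 arrays lay above the other 4 arrays for 12 members, against 6.73% of all genes. For 7 members, Ccl2, Ccl7, Ccl8, Ccl11, Cxcl5, Cxcl12 and Cxcl14, both hairpin 2 arrays lay above both hairpin 1 arrays and these above both scrambled arrays, an order that 2.04% of all genes showed. All 4 Pcgf6 hairpin arrays lay above both scrambled arrays for the same 7 members, against 9.69% of all genes. The highest array was one of hairpin 2 for 18 members (38.6% of all genes) and the hairpin 2 array with dox for 11 (18.3%). The 27 members under 1 log2 unit spanned between 0.10 and 0.98 log2, and Cxcl5 and Cxcl15, at 0.98 each, lay just under 1.

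**Figure D1:**
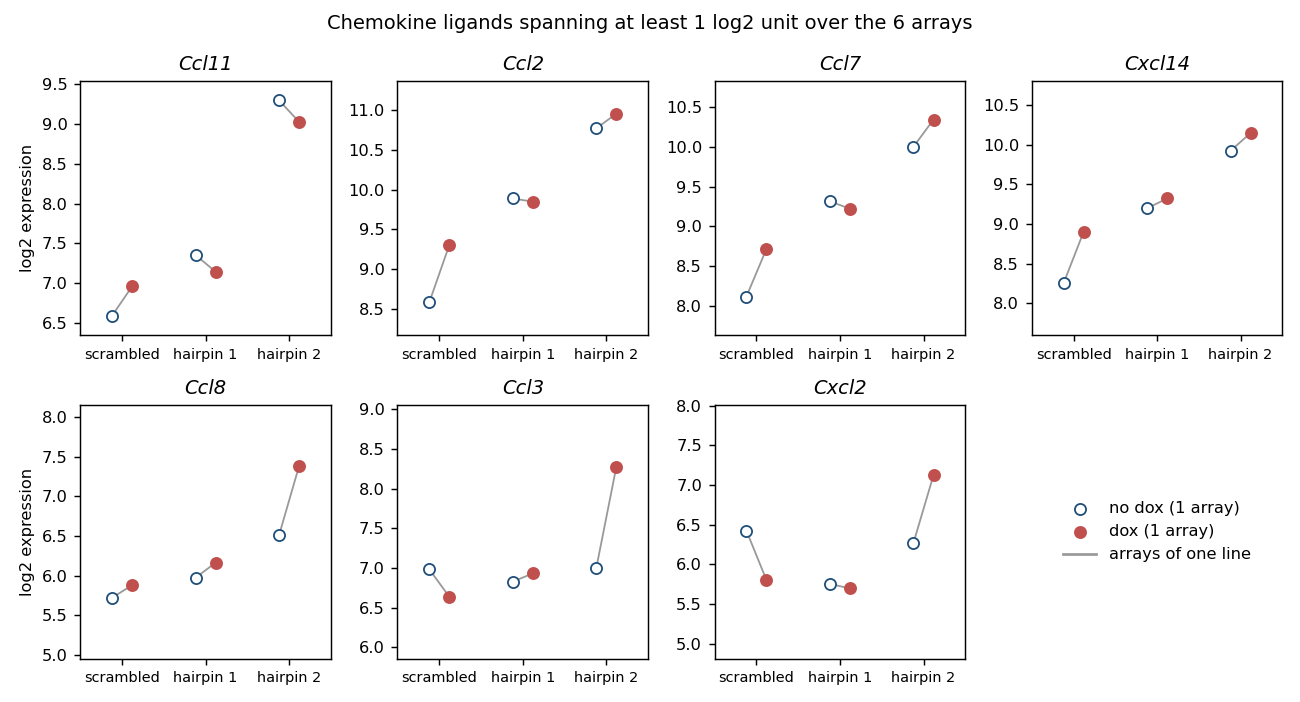
Log2 expression of the 7 members that span at least 1 log2 unit, by line, with each point 1 array (open without dox, filled with dox) and a grey line joining the arrays of a line; every panel spans the same number of log2 units. Ccl11, Ccl2, Ccl7, Cxcl14 and Ccl8 step up from scrambled to hairpin 1 to hairpin 2, while Ccl3 and Cxcl2 stand out on the hairpin 2 array with dox (8.27 and 7.12).

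Promoters were examined for the wide-ranging members because several of them shared an order of lines. RefSeq promoter entries of the GRCm38.p6 build matched 23 of 34 members, and 4 of the 7 wide-ranging ones. Ccl2, Ccl7 and Ccl11 were among the 11 members without an entry, so they were not searched for motifs. Of the 4 with an entry, Ccl8 and Cxcl14 showed that order of lines and Ccl3 and Cxcl2 did not. Shown are the 120 bases before the transcription start of those 4, from 5′ to 3′ on the gene's strand. Capitals mark matches to the NF-kB consensus (2 overlapping matches on opposite strands in Cxcl2) or to the TATA box TATAAA (in Ccl8).
Cxcl2 (GRCm38.p6 chr5:90903779-90903898, plus strand): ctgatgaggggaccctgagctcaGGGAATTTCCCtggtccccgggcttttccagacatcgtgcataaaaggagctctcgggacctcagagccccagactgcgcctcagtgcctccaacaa
Ccl8 (GRCm38.p6 chr11:82115065-82115184, plus strand): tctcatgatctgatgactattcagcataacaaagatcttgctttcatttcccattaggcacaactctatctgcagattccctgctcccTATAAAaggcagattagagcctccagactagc
Ccl3 (GRCm38.p6 chr11:83649379-83649498, minus strand): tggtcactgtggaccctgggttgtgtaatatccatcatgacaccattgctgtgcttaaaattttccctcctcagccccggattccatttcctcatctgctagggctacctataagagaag
Cxcl14 (GRCm38.p6 chr13:56296552-56296671, minus strand): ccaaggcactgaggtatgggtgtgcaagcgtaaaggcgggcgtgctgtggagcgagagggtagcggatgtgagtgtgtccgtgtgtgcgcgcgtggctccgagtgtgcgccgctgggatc
In the 250 bases before the start, on both strands, the NF-kB consensus was found in 7 of 24 member promoter entries, those of Ccl1, Ccl9, Ccl20, Cxcl1, Cxcl2, Cxcl3 and Cxcl10, against 7.25% of 32851 promoters. TATAAA was found in 9 of the 24, against 12.4% of all promoters, and the AP-1 motif TGANTCA in 2, against 6.75%. Counted from the start, the Cxcl2 matches lie at -97 to -88 and -96 to -87, and the Ccl8 match at -32 to -27. Of the 7 genes with an NF-kB match, Cxcl1, Cxcl2 and Ccl20 had their highest array in the hairpin 2 line with dox, as 18.3% of all genes did. Ccl1 and Cxcl10 were highest on the scrambled array with dox, at 6.16 and 7.20, Ccl9 on the hairpin 1 array with dox, at 6.19, and Cxcl3 on the hairpin 2 array without dox, at 5.08, with a range of 0.10.

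To ask whether the lines differed in level, a model with 1 mean per line and a shared dox term was fitted to all 6 arrays, and the mean of both Pcgf6 hairpin lines was set against the scrambled line. The error came from arrays within a line, so these p-values leave out how far lines with the same kind of hairpin differ. Ccl2, Ccl7, Ccl11 and Cxcl14 were higher in the Pcgf6 hairpin lines, by 2.10-fold to 2.70-fold. These 4 members were among 24 of 19938 genes that passed a Benjamini-Hochberg adjusted p of 0.05 in limma, or 0.12% of all genes; 0 members were lower. An unadjusted p under 0.05 was reached by 8 members, against 12% of all genes, and 7 of them had the higher value in the Pcgf6 hairpin lines, against 7.49%. A difference of at least 1.5-fold upward was measured for 5 members (1.36% of all genes) and downward for 0 (0.0351%), and 19 members lay above 0 (50.2%). The median difference was 0.0095 log2 over the 34 members and 0.00059 over all genes.

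The genes grouped here as ligands of the receptor CCR2, which recruits monocytes, held 3 of the 7 wide-ranging members, Ccl2, Ccl7 and Ccl8. Which receptor mouse Ccl8 uses was not examined. Ccl2, the main monocyte attractant, measured 8.58 without and 9.30 with dox in the scrambled line, 9.89 and 9.85 in the hairpin 1 line, and 10.77 and 10.96 in the hairpin 2 line. The groups of arrays did not overlap, and the gap between the scrambled arrays was larger than that within either hairpin line. Ccl2 differed between the Pcgf6 hairpin lines and the scrambled line by 1.43 (SE 0.15, limma adjusted p = 0.0365), or 2.69-fold. This set 4 arrays from both Pcgf6 hairpin lines against 2 from the scrambled line alone. Ccl7, a second CCR2 ligand, measured 8.12 and 8.72 in the scrambled line, 9.32 and 9.22 under hairpin 1, and 10.00 and 10.35 under hairpin 2, each time without dox first. It was higher in the Pcgf6 hairpin lines by 1.31 (SE 0.14, adjusted p = 0.0365), and its 3 lines did not overlap. Ccl8 measured 5.72 and 5.88, then 5.97 and 6.16, then 6.51 and 7.38 in the same order, a difference of 0.71 (SE 0.15) that did not pass (adjusted p = 0.129). Ccl12, another mouse ligand of CCR2, lay between 4.59 and 4.77 on all arrays.

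Ccl11, or eotaxin, attracts eosinophils through CCR3 and had the widest range of any member, 2.71 log2. It measured 6.59 without and 6.96 with dox in the scrambled line, 7.35 and 7.14 under hairpin 1, and 9.30 and 9.03 under hairpin 2. Hairpin 2 stood far above the other lines, and dox went with a lower array in both Pcgf6 hairpin lines and a higher one in the scrambled line. Ccl11 was higher in the Pcgf6 hairpin lines than in the scrambled line by 1.43 (SE 0.14, adjusted p = 0.0365), or 2.70-fold. The other eotaxin genes did not share this pattern, since Ccl24 lay between 5.79 and 6.08 and Ccl26 between 5.57 and 5.77.

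Among the CXC ligands outside the neutrophil and interferon-induced groups, Cxcl14, a ligand made by epithelial and stromal cells, measured 8.25 without and 8.90 with dox in the scrambled line. It measured 9.20 and 9.32 under hairpin 1 and 9.92 and 10.15 under hairpin 2. Cxcl14 was higher in the Pcgf6 hairpin lines by 1.07 (SE 0.12, adjusted p = 0.0402), or 2.10-fold. Cxcl12, the stromal ligand of CXCR4 that retains blood progenitors in their niche, kept the same order of lines in a narrower span, from 6.75 on the scrambled array without dox to 7.54 on the hairpin 2 array with dox. Its difference of 0.51 (SE 0.11) did not pass (adjusted p = 0.122). Cxcl13, Cxcl16 and Cxcl17 spanned 0.21, 0.35 and 0.34 log2.

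The ELR-type CXC ligands, a class that draws neutrophils largely through CXCR2, were mixed. Cxcl2 measured 6.42 without and 5.80 with dox in the scrambled line, 5.75 and 5.70 under hairpin 1, and 6.27 and 7.12 under hairpin 2. The last array was the highest, and the scrambled and hairpin 2 arrays without dox lay above the other 3. Cxcl5 measured 5.65 and 5.69, 6.00 and 5.91, and 6.26 and 6.64 in the same order. The difference of Cxcl5 between the Pcgf6 hairpin lines and the scrambled line was 0.53 (SE 0.11, adjusted p = 0.112). Cxcl1 was highest in both hairpin 2 arrays, at 7.34 and 7.47, with the other arrays between 7.06 and 7.19. Cxcl15 varied by 0.98 log2 with no order of lines, and Cxcl3 by 0.10. Ppbp, a platelet CXC ligand of the same gene cluster whose symbol falls outside the naming rule, measured 6.49 and 7.43 in the scrambled line, 7.87 and 7.73 under hairpin 1, and 8.15 and 8.45 under hairpin 2, a difference of 1.09 (SE 0.19, adjusted p = 0.0887).

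The inflammatory CC ligands Ccl3, Ccl4, Ccl5, Ccl6 and Ccl9, made by macrophages and other leukocytes, spanned under 1 log2 unit apart from Ccl3. Ccl3, or MIP-1 alpha, measured 6.98 without and 6.64 with dox in the scrambled line, 6.83 and 6.93 under hairpin 1, and 7.00 and 8.27 under hairpin 2. The last array alone stood apart, and the other 5 overlapped. Ccl4, which lies beside Ccl3 in the genome and is often induced with it, lay between 5.47 and 5.77. Ccl5, Ccl6 and Ccl9 spanned 0.14, 0.27 and 0.39 log2.

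The remaining groups had no member spanning 1 log2 unit. The CXCR3 ligands Cxcl9, Cxcl10 and Cxcl11, classical interferon-gamma targets, spanned 0.40, 0.38 and 0.29. Cxcl11 was the member with the lowest difference, -0.23 (SE 0.07, adjusted p = 0.278), and RefSeq lists it as a transcribed pseudogene in the reference strain. Ccl1 and Cxcl11 were the members for which all 4 Pcgf6 hairpin arrays lay below both scrambled arrays, against 8.38% of all genes. The CCR4 and CCR8 ligands Ccl1, Ccl17 and Ccl22 spanned between 0.18 and 0.38. Ccl20, the CCR6 ligand of mucosal tissue, spanned 0.71 with its highest values, 6.73 and 7.16, on the hairpin 2 arrays. The homeostatic ligands Ccl19, Ccl25 and Ccl28 spanned 0.12 to 0.32; the second probe set of Ccl25 differed from the first in the order of its arrays. Ccl19 has near-identical copies in the mouse genome and its 5 probe sets gave nearly the same values, so its level is uncertain. Cx3cl1, the membrane-bound fractalkine, spanned 0.59 and Xcl1 0.30.

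**Figure D2:**
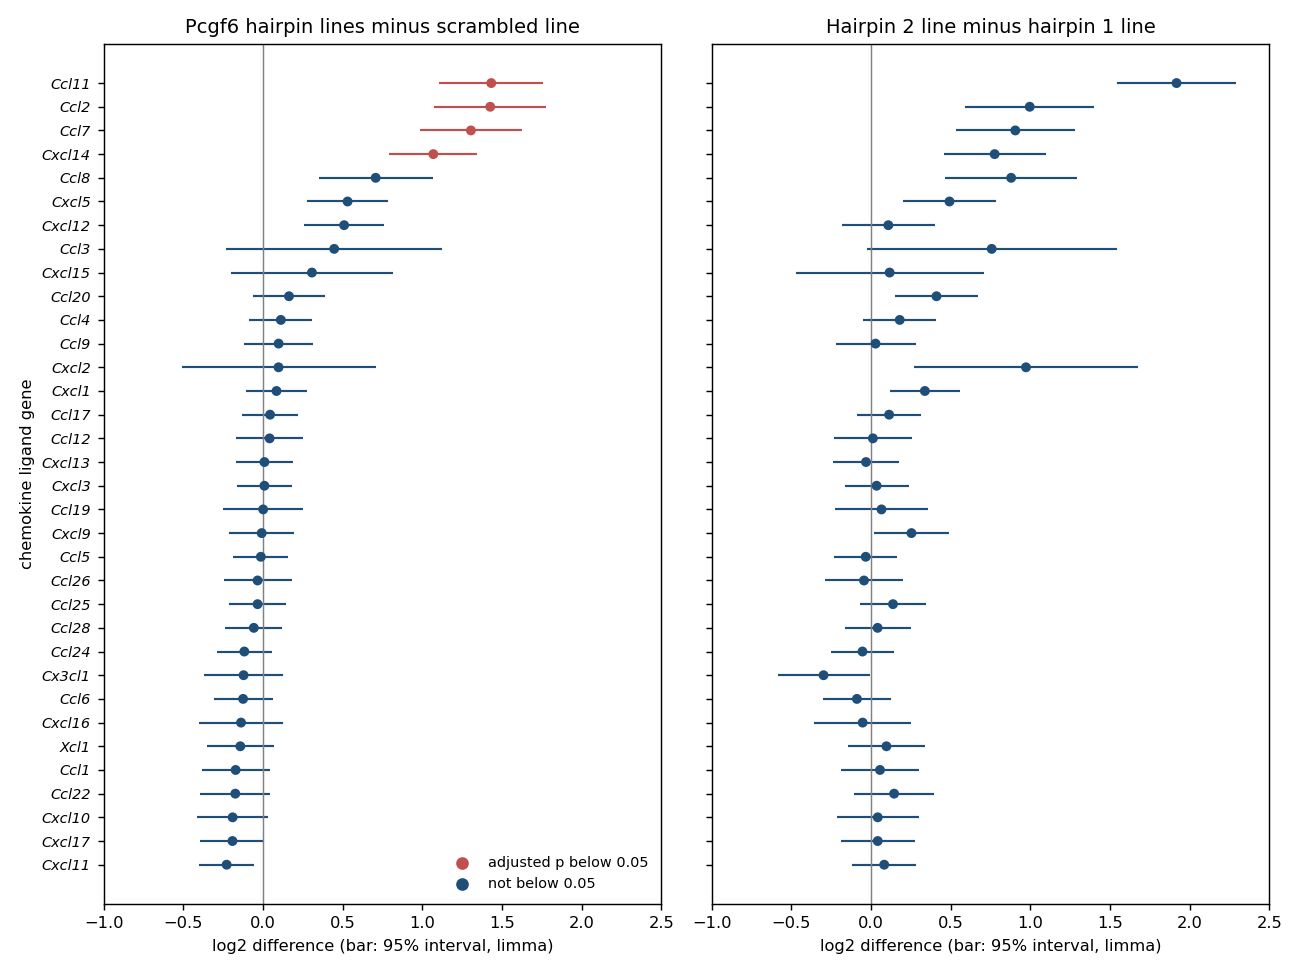
Log2 differences of the 34 members with 95% intervals from limma, left for the mean of both Pcgf6 hairpin lines minus the scrambled line and right for hairpin 2 minus hairpin 1, in the order of the left panel. Red marks an adjusted p below 0.05. Ccl11, Ccl2, Ccl7 and Cxcl14 have the largest values in the left panel (1.07 to 1.43), and Ccl11 has the largest in the right panel (1.92).

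The calls for Ccl2, Ccl7, Ccl11 and Cxcl14 depended on the fit, although each difference stayed above 0 under all 15 alternatives run. None of the 4 passed without the dox term (adjusted p from 0.175 to 0.278), without the dimmest 50% of genes (adjusted p = 0.0515), with all probe sets tested (adjusted p = 0.393), with a feeder marker covariate (values given with the markers), or without the hairpin 2 array with dox (adjusted p from 0.104 to 0.131). Without the hairpin 2 array lacking dox, Ccl11 and Ccl8 passed. Without the scrambled array lacking dox, Ccl11 and Ccl2 passed. Without the hairpin 1 array with dox 7 members passed, the same 4 and Cxcl5, Cxcl12 and Cxcl15.

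The Pcgf6 hairpin lines were also set against each other, and no gene passed. Hairpin 2 exceeded hairpin 1 by at least 1.5-fold for 7 members, Ccl11, Ccl2, Ccl3, Ccl7, Ccl8, Cxcl14 and Cxcl2, and was lower by as much for 0; over all genes 0.401% were higher and 0.16% lower by as much. Of the 34 members 27 had the higher fitted level in hairpin 2, against 51.1% of all genes. Ccl11 differed by 1.92 (SE 0.16, 95% interval 1.54 to 2.29, 2 arrays against 2, limma adjusted p = 0.0778), or 3.78-fold. Ccl2 differed by 1.00 (SE 0.17) and Ccl7 by 0.91 (SE 0.16), each with an adjusted p of 0.277. Limma called 0 of 19938 genes (0%) in this comparison, with 1323 at an unadjusted p under 0.05, and 11 of the 34 members had an unadjusted p under 0.05, against 6.64% of all genes. Of these 11, 10 were higher in hairpin 2 (2.95% of all genes), and Cx3cl1 was lower. Ccl11 passed with an intensity trend in the prior (adjusted p = 0.037) and when either scrambled array was left out (adjusted p = 0.00604).

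The members that differed were neighbours in part. In the RefSeq annotation Ccl2, Ccl7, Ccl11, Ccl12, Ccl8 and Ccl1 follow each other on chromosome 11 with no other protein-coding gene between them. Of these 6 genes 4 spanned over 1 log2 unit, whereas Ccl12 and Ccl1, within the same run, spanned 0.17 and 0.34. A second run on chromosome 11, Ccl5, Ccl9, Ccl6, Ccl3 and Ccl4, held 1 such gene, Ccl3. The run Cxcl5, Ppbp, Pf4, Cxcl3, Cxcl15, Cxcl1 and Cxcl2 on chromosome 5 held Cxcl2 among its 5 members. Cxcl14 lies apart from other members, on chromosome 13.

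Switching on a Pcgf6 hairpin was followed by no called change in a chemokine ligand. In the comparison of dox with no dox in the Pcgf6 hairpin lines, limma called 0 of 34 members, and 0 had an unadjusted p under 0.05; over all genes 0.201% passed the adjusted and 8.75% the unadjusted threshold, the latter with 4.39% higher. Of the members 20 lay above 0 (47.5% of all genes), and the median difference was 0.023, against -0.0073 over all genes. Ccl3 was the member with a difference of at least 1.5-fold upward (0.557% of all genes), 0.69 (SE 0.39, 95% interval -0.24 to 1.62, adjusted p = 0.666). It measured 0.10 in the hairpin 1 pair and 1.27 in the hairpin 2 pair. When the hairpin 1 array with dox was left out Ccl3 measured 1.36, and when the hairpin 2 array with dox was left out 0.017. The size of its difference thus rested on the hairpin 2 array with dox. Ccl8 measured 0.53 (SE 0.38) and Cxcl2 0.40 (SE 0.43). For Ccl2 the difference was 0.072, with a 95% interval from -0.90 to 1.04. The error of this fit includes the difference between the hairpin lines, which was wide for several members. The 0 members at an unadjusted p under 0.05 thus cannot be read as fewer than the 8.75% of all genes. With the hairpin line as a block 0 members passed as well, and the adjusted p was 0.863 for Ccl2, 0.469 for Ccl11 and 0.460 for Ccl3. Both arrays with dox lay above both without in the Pcgf6 hairpin lines for 1 member, Ccl9, and below for 6, against 17.9% and 21.8% of all genes. A gene whose hairpin lines do not overlap cannot meet either rule. These counts therefore cannot be read as fewer than the shares over all genes.

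The change with dox was next compared between the Pcgf6 hairpin lines and the scrambled line. Again 0 of 34 members passed and 0 had an unadjusted p under 0.05, against 0.0702% and 4.55% of all genes (2.63% unadjusted and higher). The error again includes the difference between the hairpin lines, so the 0 cannot be read as fewer than the 4.55%. Over all genes limma called 14, or 23 with the hairpin line as a block. The response was above 0 for 17 members (50.3% of all genes), at least 1.5-fold higher for Ccl3 and Cxcl2 (1.06%) and at least 1.5-fold lower for Ccl2 and Ccl11 (0.848%). Cxcl12 had the smallest unadjusted p of a member, 0.0629, with a response lower by 0.38 (SE 0.17, adjusted p = 0.999). Ccl3 and Cxcl2 measured 1.03 (SE 0.67) and 1.02 (SE 0.75), and Ccl2 -0.65 (SE 0.70). With an array left out Ccl3 ran from 0.36 to 1.71, Cxcl2 from 0.30 to 1.73 and Ccl2 from -1.20 to -0.095, the values nearest 0 being those without the hairpin 2 array with dox for Ccl3 and Cxcl2 and without the hairpin 1 array with dox for Ccl2. With the feeder covariate they measured 2.16, 2.03 and -0.14.

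Line by line, with 1 array against 1 and no test, dox went with a higher array for 14 members in the hairpin 1 pair (50.4% of all genes), 17 in the hairpin 2 pair (45.8%) and 19 in the scrambled pair (46.5%). In the hairpin 1 line 0 members differed by 1.5-fold, where 0.627% of all genes were higher and 0.241% lower. In the hairpin 2 line Ccl3, Cxcl2 and Ccl8 were at least 1.5-fold higher with dox, by 1.27, 0.85 and 0.87 log2, against 2.17% of all genes, and 0 were lower, against 0.446%. In the scrambled line Ccl2, Cxcl14, Cxcl15 and Ccl7 were higher with dox, by 0.72, 0.65, 0.64 and 0.60, against 1.48% of all genes, and Cxcl2 was lower, at -0.62, against 0.211%. No member passed 1.5-fold in more than 1 line in the same direction. Higher values with dox in all 3 lines were seen for 4 members, Ccl8, Ccl9, Ccl20 and Cxcl14 (15.2% of all genes), and lower values in all 3 for 5 (18.5%).

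**Figure D3:**
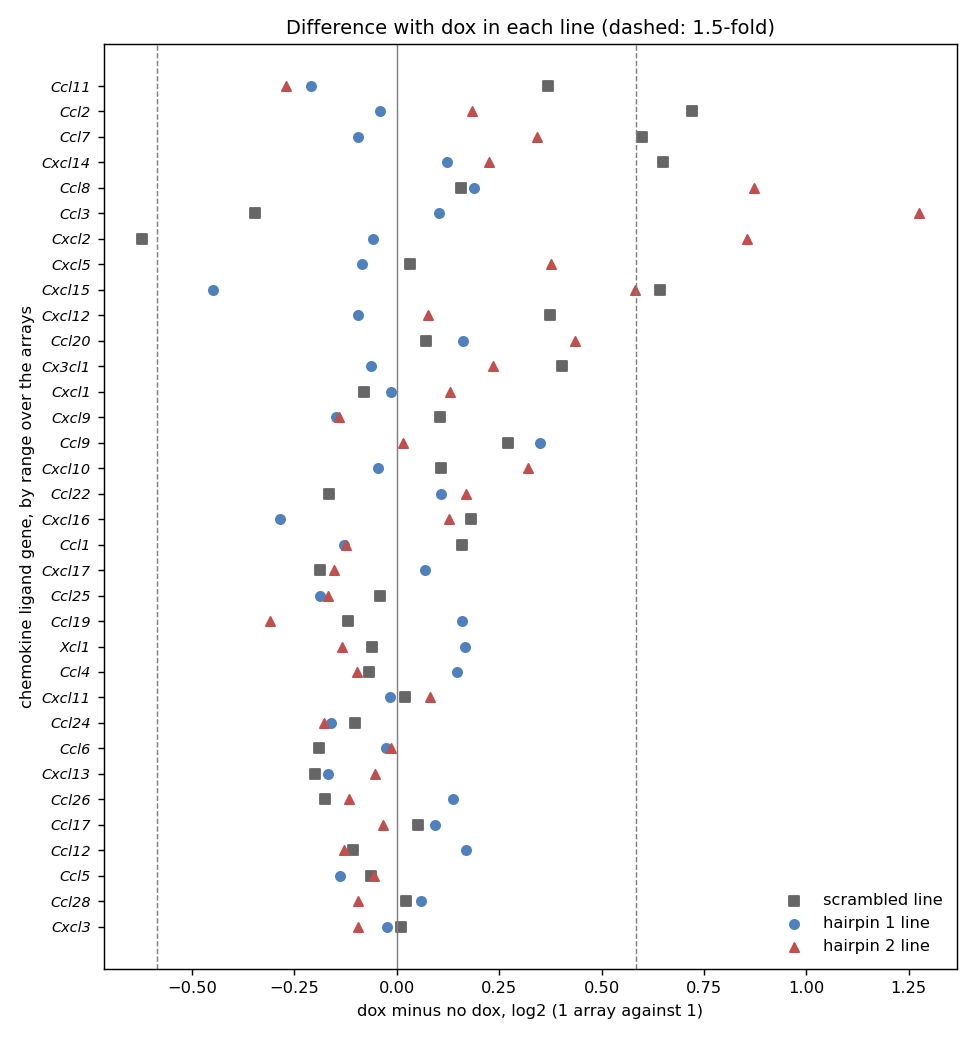
Dox minus no dox for each member in each line on the log2 scale, each point 1 array against 1, with members ordered by their range over the 6 arrays and dashed lines at 1.5-fold. Triangles (hairpin 2) pass the upper line for Ccl3, Cxcl2 and Ccl8, squares (scrambled) for Ccl2, Ccl7, Cxcl14 and Cxcl15, and no circle (hairpin 1) passes either line.

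Receptors and the signalling genes upstream of chemokines gave a comparison for the ligands. Of 28 listed chemokine receptor symbols 23 were measured, and limma called 0 in any of the 4 comparisons, with 1 to 3 at an unadjusted p under 0.05 in each. Over all genes 4.55% to 12% reached an unadjusted p under 0.05, depending on the comparison. Of these receptors 0 spanned 1 log2 unit. The atypical receptor gene Ccrl2, which is induced in inflammation, had the widest range, 0.93, with 7.56 on the hairpin 2 array with dox and between 6.63 and 6.84 elsewhere. Ccr6 and Cxcr6 spanned 0.70 and 0.68. The receptors of the called CC ligands, named after their values were seen, were level: Ccr2 lay between 3.90 and 4.08 and Ccr3 between 5.09 and 5.25. In the NF-kB list limma called 0 of 23 measured genes in any comparison (0 to 6 unadjusted). The 6 came between the Pcgf6 hairpin and scrambled lines, where 12% of all genes had an unadjusted p under 0.05. Tnfaip2, Tnfrsf1a and Nfkbiz had the widest ranges, 1.40, 1.28 and 1.27. The NF-kB feedback gene Nfkbiz measured 8.83 on the hairpin 2 array with dox and 8.24 on the one without, with the other arrays between 7.56 and 7.92. In the list of inflammatory cytokines and adhesion genes 0 of 17 passed (0 to 7 unadjusted). The 7 also came between the Pcgf6 hairpin and scrambled lines, against 12% of all genes and 8 of the 34 ligands. The widest-ranging, Tslp, Vcam1 and Csf1, differed between the Pcgf6 hairpin and scrambled lines by 0.83, 0.83 and 0.71 (adjusted p = 0.0647, 0.0836 and 0.0887). Of 16 interferon response genes 1 passed in limma, Gbp3, a guanylate-binding protein gene. It was higher by 0.81 (SE 0.09, limma adjusted p = 0.0438) with dox in the Pcgf6 hairpin lines, where 0.201% of all genes passed. In the scrambled pair, 1 array against 1, it measured -0.02, and 0 of the 16 passed in the difference from scrambled.

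Markers of other cell types also differed between the lines. In bulk RNA fewer cells of a type and less RNA per cell cannot be told apart. The mean of 24 feeder fibroblast markers was 9.25 without and 9.78 with dox in the scrambled line, 10.08 and 10.10 under hairpin 1, and 9.93 and 10.35 under hairpin 2. All 24 had a higher fitted level in the Pcgf6 hairpin lines than in the scrambled line, against 50.2% of genes. Their median difference was 0.61, and 22 of the 24 had an unadjusted p under 0.05, against 12% of all genes. Lum, a proteoglycan of connective tissue, passed at 1.36 (SE 0.13, limma adjusted p = 0.0357). Between hairpin 2 and hairpin 1, where Ccl11 measured 1.92, the median of the feeder markers was 0.016. Of the 24, 14 were above 0, against 51.1% of all genes. The markers went both ways in that comparison, and limma called 0. An unadjusted p under 0.05 was reached by 10 of 24, against 6.64% of all genes, with Lum at 1.04, Col6a1 at 0.45, Dcn at 0.40 and Timp3 at -0.67. Of the 15 stem cell markers 1 had a higher fitted level in the Pcgf6 hairpin lines than in the scrambled line, with a median difference of -0.098. In limma 0 of them passed there or with dox in the Pcgf6 hairpin lines. At an unadjusted p under 0.05 there were 4 and 5, against 12% and 8.75% of all genes. With the mean of the feeder markers as a covariate, Ccl11, Ccl2, Cxcl14 and Ccl7 differed between the Pcgf6 hairpin and scrambled lines by 0.96, 0.69, 0.58 and 0.54, with 0 of 19938 genes called (adjusted p = 0.9998 for each). With the same covariate, Ccl11 differed between hairpin 2 and hairpin 1 by 1.88 (adjusted p = 0.0097) and Ccl7 by 0.84 (adjusted p = 0.0456), and 19 genes passed. The covariate took up a further residual degree of freedom and itself differed between the lines. Whether feeder signal accounts for the differences was therefore not tested.

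The macrophage and monocyte markers stood highest in the hairpin 2 line. Their mean over 14 genes was 7.04 without and 7.20 with dox under hairpin 2, and between 6.59 and 6.73 on the other 4 arrays. Both hairpin 2 arrays lay above the 4 others for 10 of the 14, against 6.73% of all genes. Other markers, named after their values were seen, went otherwise. Cd68 was highest on the scrambled arrays, at 9.48 without and 9.44 with dox, and Itgam and Aif1 were highest on a hairpin 1 array. Lyz2, the lysozyme gene of myeloid cells, measured 9.85 and 10.53 under hairpin 2 and between 8.44 and 9.16 elsewhere. The complement gene C1qb measured 7.99 and 8.27 under hairpin 2 and between 6.88 and 7.18 elsewhere. Limma called 0 of the 14 in any comparison. At an unadjusted p under 0.05 there were 9 between hairpin 2 and hairpin 1, against 6.64% of all genes. Between the Pcgf6 hairpin and scrambled lines there were 7, against 12%, and with dox in the Pcgf6 hairpin lines 0, against 8.75%. The part of these markers in the chemokine values was not tested. Lymphocyte and mast cell markers, with means from 5.84 to 5.99, and endothelial markers, from 6.68 to 6.86, did not follow the order of the lines.

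**Figure D4:**
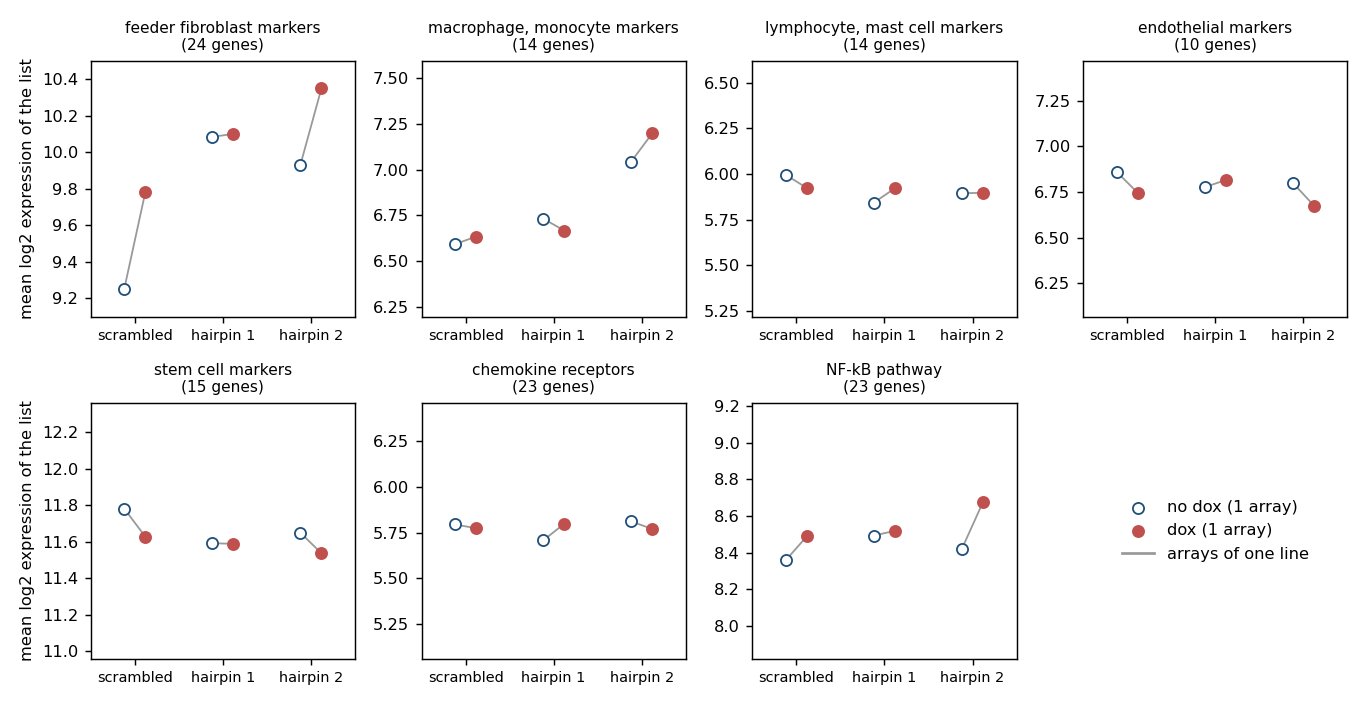
Mean log2 expression of 7 gene lists on each array, by line, open points without dox and filled points with dox; every panel spans the same number of log2 units. Feeder fibroblast markers are lowest in the scrambled line (9.25 and 9.78), macrophage and monocyte markers are highest in the hairpin 2 line (7.04 and 7.20), and chemokine receptors stay between 5.71 and 5.81.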

How the data were processed

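The submitters measured 6 samples on 6 one-colour arrays. As log2 expression, the deposited table came from RMA in Affymetrix Power Tools, according to the submitters' processing notes. RMA corrects background, equalises the distributions of the arrays and summarises the probes of a set. The sources used here do not give versions, options or genome build. The platform annotation gave 1 gene symbol to 21789 of the 35556 probe sets, several to 1621 and none to 12146. Genes were taken from probe sets with 1 symbol, the brightest one where there were several, with no filter on level. All 34 members matched RefSeq by Entrez identifier.

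From these values, limma 3.58.1 in R 4.3.3 fitted 2 models over all 6 arrays. The first had 4 group means: dox (n = 2) and no dox (n = 2) in the Pcgf6 hairpin lines, and 1 array each in the scrambled line, which was assumed to vary like the hairpin arrays. The second had a mean for each line and a dox term. Each left 2 residual degrees of freedom, with 4.44 and 4.86 prior ones. In the second model the residual holds any difference in dox response between lines. Tests were two-sided, adjusted over all genes by the Benjamini-Hochberg method, with a threshold of 0.05; SE is the moderated standard error, and intervals are at 95%. The scripts were tested on simulated data. The number of arrays limits the precision.

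Members, lists and tests were chosen with earlier results of these data known. Members with a range of at least 1 log2 were given array by array, and of each other list up to 3 genes with the widest range could be named. Arrays of one hairpin come from the same line and so are paired: their deviations from the group means correlated at 0.181 over all genes and 0.713 over the 34 members. No pair of arrays held an identical value in more than 0.0984% of probe sets. Alternatives were quantile normalization, median centring, leaving out the dimmest 25% or 50% of genes, the mean of probe sets, all probe sets, an intensity trend, a feeder covariate, the replicate block or no dox term, leaving out each array, and 2-fold in place of 1.5-fold.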

Additional observations from a re-analysis of the deposited data

How the results depend on the processing

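The 4 members called between the Pcgf6 hairpin and scrambled lines stayed 4 with quantile normalization, median centring, the mean of probe sets, an intensity trend and without the dimmest 25% of genes. The count was 0 without the dimmest 50%, with all probe sets, with the feeder covariate and without the dox term, and 0 to 7 with an array left out; over all genes it was 4, 0, 0 and 1 in those settings, 113 with an intensity trend and 0 to 437 with an array left out, against 24. Between the hairpin lines, 0 members and 0 genes became 1 and 3 with an intensity trend, 2 and 19 with the feeder covariate, and 0 to 1 and 0 to 4 with an array left out. For dox in the Pcgf6 hairpin lines, 40 genes became 7 without the dimmest 50%, 62 with an intensity trend, 7 with the feeder covariate and 14 to 40 with an array left out, and the members called stayed 0, or 0 to 1 with an array left out. For the difference from scrambled, 14 genes became 4 with median centring, 9 and 4 without the dimmest 25% and 50%, 0 with all probe sets, 0 with the feeder covariate, 23 with the replicate block and 0 to 4 with an array left out; 0 members passed in any of these, and the replicate block changed no call of a member. At 2-fold in place of 1.5-fold, 1 member was higher with dox under hairpin 2, and 0 were higher and 0 lower in the scrambled line.

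Some differences with dox changed sign. With the feeder covariate, Ccl2 measured -0.29, Ccl3 -0.094, Ccl7 -0.32, Ccl8 -0.031, Cxcl14 -0.066 and Cxcl2 -0.30 in the Pcgf6 hairpin lines, and in the difference from scrambled Ccl11 measured 0.011 and Ccl7 0.16. With an array left out, values in the Pcgf6 hairpin lines ran from -1.21 to 0.73 for Ccl11, from -0.48 to 0.63 for Ccl2, from -0.44 to 0.69 for Ccl7, from -0.079 to 1.14 for Ccl8, from -0.24 to 0.59 for Cxcl14 and from -0.32 to 1.11 for Cxcl2. In the difference from scrambled they ran from -1.58 to 0.36 for Ccl11, from -1.04 to 0.086 for Ccl7 and from -0.24 to 0.98 for Ccl8, and between the Pcgf6 hairpin and scrambled lines from -0.070 to 0.96 for Ccl3 and from -0.41 to 0.61 for Cxcl2. Leaving out a scrambled array gave no value for the difference from scrambled. The causes were not tested. Signal over background is unknown, so low and level members cannot be called absent.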
